A study of Mus musculus with 11 samples.

Results

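The comparison set the RNA of leukemic B cells beside that of pre-leukemic pro-B cells with the same loss of 1 copy of Ebf1 and 1 copy of Pax5. It used 9 of the 11 RNA-seq libraries of the study. On the leukemic side were the 6 libraries titled B-ALL (B cell acute lymphoblastic leukemia), from lymph node cells of 3 mice numbered 686, 713 and 760. The 2 libraries of each mouse were averaged on the log2(FPKM + 1) scale, so that each mouse counted once. On the other side were the 3 libraries of dHet proB cells, each counted once, and 10657 of the 24319 listed genes entered the test because they reached an FPKM of 1 in at least 2 of these 6 units. FPKM, the fragments of a gene per kilobase of transcript and per total of mapped fragments, is a level per transcript length.

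All mice were of the C57BL/6J strain. The leukemic cells were Ebf1+/- Pax5+/-, and their labels name no Rag2 allele. The dHet proB cells were Ebf1+/- Pax5+/- and also Rag2-/-, so they lack the recombinase needed to assemble antigen receptor genes. They came from fetal liver, as c-Kit+ cells, and were cultured with the cytokines IL-7, SCF and Flt3 ligand on a layer of OP9 stromal cells. The remaining group, wt proB cells sorted from bone marrow as Fraction BC with Ebf1, Pax5 and Rag2 intact, had 2 libraries, which stayed outside the test. Leukemia, the Rag2 genotype, the tissue and age of origin and the culture therefore change together between the groups compared, and their parts in any difference cannot be told apart. Whether each dHet proB library is its own culture or animal is not stated in the labels, so p-values reflect only how far these libraries vary, possibly for technical reasons. Library 3 of dHet proB is titled replicate 3, while its source name is that of replicate 2.

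EBF1 and PAX5 are transcription factors that work in sequence in the bone marrow and fetal liver: EBF1 opens the B lineage programme, and PAX5 then holds it by activating B cell genes and repressing those of other lineages. Pro-B cells rearrange the immunoglobulin heavy chain gene and grow under IL-7. Those with a productive rearrangement display the pre-B cell receptor, divide a few times and move on to rearrange the light chain. In B-ALL this course is halted, and cells with the features of pro-B or pre-B cells accumulate. Losing copies of EBF1 or PAX5 is a common event in the human disease.

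Some libraries stood apart before any gene was compared. The sum of FPKM over genes ranged from 505261 to 638953, and 13157 to 14480 genes were above 0. Correlations of log2(FPKM + 1) ran from 0.979 to 0.99 within a mouse, from 0.927 to 0.967 between mice, from 0.954 to 0.973 among dHet proB libraries and from 0.876 to 0.909 across the groups. In mouse 686, 414 genes were at least 2-fold lower in library 1 than in library 2, against 21 higher, and in mouse 713 the numbers were 178 and 17. Of the genes called lower in B-ALL below, 112 of 886 (12.6%) showed such a gap in at least 1 mouse, against 13 of 1181 (1.1%) of those called higher. In library 3 of dHet proB the FPKM of 14 cytokine-response genes summed to 2403, against 611 and 635 in libraries 1 and 2. Its 38 DNA replication genes summed to 1895 against 3615 and 5839. Mouse 713 stood apart in MHC class II genes. Results that rest on these libraries are given below with and without them, those on the gaps within mice in a paragraph on them.

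Among the tested genes, 1181 were higher in B-ALL (11.1%) and 886 were lower (8.31%), 19.4% in either direction, at a limma adjusted p below 0.05 (moderated test on log2(FPKM + 1), two-sided, Benjamini-Hochberg adjustment). An unadjusted p below 0.05 was reached by 3961 genes. Changes are on the log2(FPKM + 1) scale, which understates those of low genes, and the value after ± is the standard error from limma over 3 mice and 3 libraries. Changes of at least 2-fold were found in 813 of the higher and 536 of the lower genes, and changes of at least 8-fold in 70 and 37. The median log2 difference was 1.24 among the genes called higher, -1.13 among those called lower, and 0.03 over all tested genes. In 1173 of the 1181 and in 854 of the 886, every B-ALL library lay on the same side of every dHet proB library, as in 3775 (35.4%) of all tested genes, and the test itself favours such genes. Of the higher genes, 35 were listed at 0 in all 3 dHet proB libraries, and of the lower genes 6 were listed at 0 in all 6 B-ALL libraries. For a single gene, an exact permutation test of 3 units against 3 cannot go below 0.1.

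**Figure D1:**
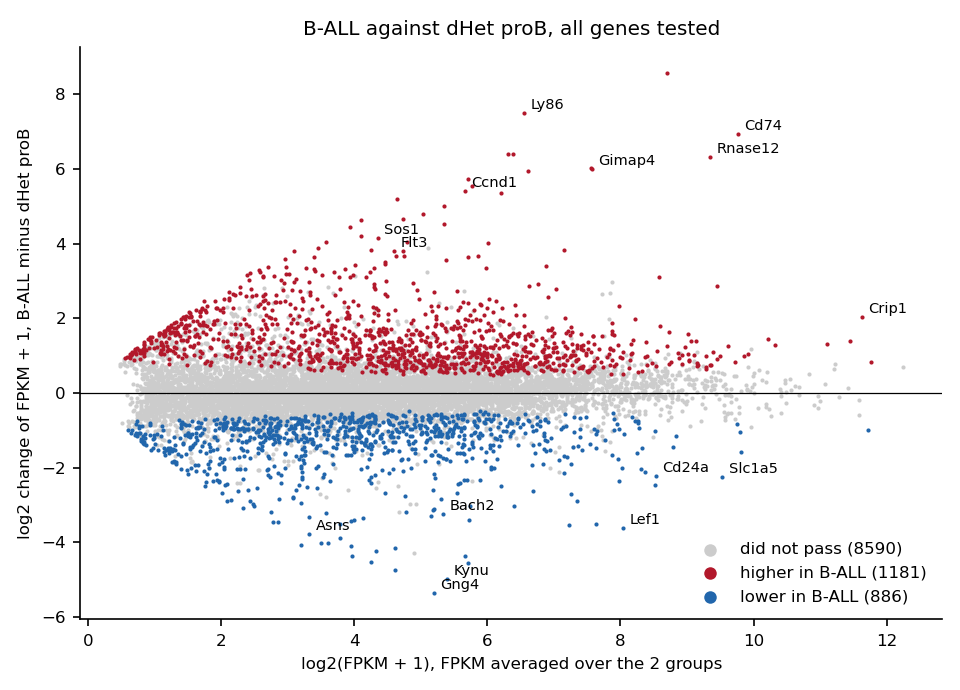
Each point is one of the 10657 tested genes, with log2(FPKM + 1) of the FPKM averaged over both group means on the x axis and its log2 difference, B-ALL minus dHet proB, on the y axis; coloured points are the 1181 higher and 886 lower genes. Calls in both directions are found at all levels of expression, and the topmost point is the predicted gene Gm525.

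These counts depended on 1 mouse and 1 library more than on the others. Without mouse 686 the counts were 323 higher and 236 lower, and without dHet proB library 1 they were 321 and 216, both with 2 units against 3. Without dHet proB library 3, the library with high cytokine-response genes, they were 975 and 618. The split between directions depended on the scaling of the libraries: 57.1% of calls were higher with FPKM as deposited, 38.9% (788 higher, 1240 lower) with every library rescaled to the same sum, and 47% (1013 and 1144) after quantile normalization. Rescaling to the same sum moved the median log2 difference of all tested genes from 0.03 to -0.13, and changes close to those values have no fixed direction. The 3 mice lay within 2-fold of each other in 82.1% of the higher and 85.9% of the lower genes, shares near the 84.4% of all tested genes. The mice differed by 4-fold or more in 46 higher and 16 lower genes.

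The cells of both groups carried the markers of early B cells. The FPKM of 12 such markers summed to between 6584 and 9707 in the B-ALL libraries and between 8821 and 11080 in the dHet proB libraries, ranges that overlap. Rag2, a partner of Rag1 in the recombinase and the gene deleted in dHet proB cells, was at 12.7 and 11.1 FPKM in mouse 686, 16.6 and 15.4 in mouse 713, 13.5 and 14 in mouse 760, and 12.6, 10.2 and 8.57 in dHet proB libraries 1, 2 and 3. It did not pass (log2 difference of 0.38 ± 0.20, limma adjusted p = 0.208), and an FPKM computed over the gene as a whole cannot tell which exons gave these fragments. Markers of the OP9 feeder cells were near 0: 18 of 20 stromal markers were below an FPKM of 1 in every dHet proB library, and the list summed to between 2.33 and 6.75 there. Sums of T cell, NK cell and red cell markers were higher in each B-ALL library than in each dHet proB library, and those of myeloid markers overlapped. The 18 T cell markers summed to 134 to 581 in the B-ALL libraries and 78.1 to 97.3 in dHet proB, the NK cell markers to 50.9 to 333 and 8.03 to 35.2, the myeloid markers to 42 to 322 (lowest in mouse 760) and 16.3 to 56.1, and the red cell and megakaryocyte markers to 8.58 to 516 and 1.88 to 2.07. Lck, a kinase also used by early B cells, gave most of the T cell sum in every B-ALL and dHet proB library. Nkg7 gave most of the NK cell sum in mice 686 and 760. Cd3e was lowest among the mice in mouse 760, where the T cell sum was highest, so these sums are no measure of T or NK cell content. In these bulk libraries, fewer cells of a type and less RNA per cell cannot be told apart, and the part of such cells in the results was not tested.

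The list sums are plotted for each library, since several results below move with them.

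**Figure D2:**
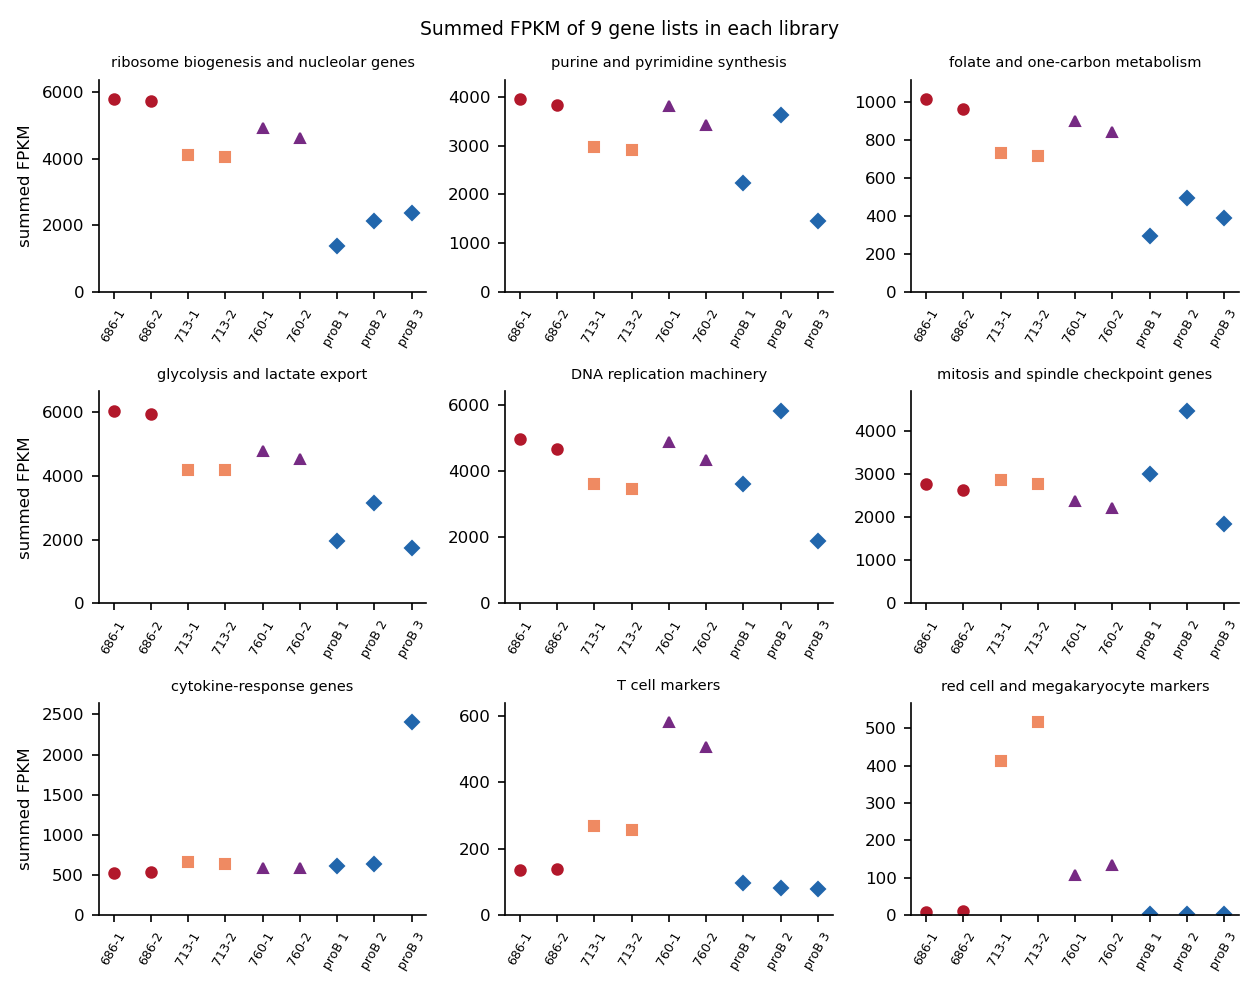
Summed FPKM (linear axis from 0) of 9 gene lists, 1 panel each, with 1 symbol for each of the 9 libraries, B-ALL libraries coloured by mouse. DNA replication sums of dHet proB span 1895 to 5839 on both sides of the B-ALL values, and the cytokine-response sum of dHet proB library 3 (2403) is above all others.

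The largest rises joined genes of the lymphocyte surface and cytoplasm with secreted proteins. Ly86 encodes MD-1, the partner of the toll-like receptor homologue CD180, and was at 171 and 152 FPKM in mouse 686, 251 and 243 in mouse 713, 162 and 134 in mouse 760, and 0 in all 3 dHet proB libraries (limma adjusted p = 6.23e-05). Ccnd1, which encodes cyclin D1, an activator of CDK4 and CDK6, was at 129.7 and 129 FPKM in mouse 686, 112 and 112 in mouse 713, 56.8 and 52.2 in mouse 760, and 1.55, 0.844 and 1.21 in dHet proB libraries 1, 2 and 3, a log2 difference of 5.42 ± 0.34 (limma adjusted p = 0.00131). For both genes every leukemic library was above every dHet proB library, which the choice of the largest rises required, so this separation is no finding. Among the mice, mouse 760 was the lowest for Ccnd1. GIMAP proteins are small GTPases of lymphocytes that act in cell survival, and 4 of the 8 tested members rose, none fell (median log2 1.28). Gimap4 was at 356 and 319 FPKM in mouse 686, 402 and 407 in mouse 713, 338 and 403 in mouse 760, and 4.28, 1.5 and 13.7 in dHet proB libraries 1, 2 and 3, a log2 difference of 6.0 ± 0.58 (limma adjusted p = 0.00311). Gimap3 was at 139 and 127 FPKM in mouse 686, 297 and 286 in mouse 713, 149.9 and 146 in mouse 760, and 2.65, 0.446 and 3.75 in dHet proB libraries 1, 2 and 3, a log2 difference of 5.94 ± 0.49 (limma adjusted p = 0.00217). Gimap7 (3.67 ± 0.31) and Gimap8 (1.86 ± 0.49) also rose, and dHet proB library 2 was the lowest in all 4. Gimap8 no longer passed without mouse 686, 713 or 760 or dHet proB library 1 (adjusted p = 0.0693 to 0.116). Ly86, Ccnd1, Gimap4, Gimap3 and Gimap7 kept their calls with each unit left out in turn.

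Several of the genes that rose most are known from epithelia or the male reproductive tract rather than from B cells. Rnase12, a ribonuclease A family gene, was at 1167 and 1184 FPKM in mouse 686, 1559 and 1540 in mouse 713, 1134 and 1085 in mouse 760, and 9.37, 6.57 and 48.8 in dHet proB libraries 1, 2 and 3, a log2 difference of 6.33 ± 0.66 (limma adjusted p = 0.00371). It is one of a run of neighbouring genes, Pnp2, Rnase10, Rnase9, Rnase11 and Rnase12, that all rose at least 2-fold, Rnase10 by 4.67 ± 0.78 and Rnase11 by 4.44 ± 0.45. Crisp1, a secreted protein of the epididymis, rose by 5.2 ± 0.36 on the log2 scale. Cdh17, the liver and intestine cadherin, was at 109 and 95.4 FPKM in mouse 686, 308 and 293 in mouse 713, 28 and 27.8 in mouse 760, and 1.34, 0.773 and 2.09 in dHet proB libraries 1, 2 and 3, a log2 difference of 5.37 ± 0.77 (limma adjusted p = 0.00879). Mouse 713 was highest for Cdh17 and mouse 760 lowest, in a set of genes chosen to have no overlap with dHet proB. Trf, encoding the iron carrier transferrin, was at 278 and 253 FPKM in mouse 686, 9.94 and 9.45 in mouse 713, 244 and 198 in mouse 760, and 0.057, 0 and 0 in dHet proB libraries 1, 2 and 3, a log2 difference of 6.39 ± 1.15 (limma adjusted p = 0.0151), and here mouse 713 was the low one. Jchain, which joins immunoglobulin polymers, was at 242 and 233 FPKM in mouse 686, 28.1 and 28 in mouse 713, 205 and 201 in mouse 760, and 0.213, 0.104 and 0.753 in dHet proB libraries 1, 2 and 3, a log2 difference of 6.4 ± 0.77 (limma adjusted p = 0.00563), again lowest in mouse 713. The largest rise of all was in the predicted gene model Gm525, which the rule for naming genes left out and which is given because of its value: 57.5 and 53.7 FPKM in mouse 686, 899.8 and 811 in mouse 713, 1830 and 1330 in mouse 760, and 0.11, 0.104 and 0.108 in dHet proB libraries 1, 2 and 3, a log2 difference of 8.58 ± 1.12 (limma adjusted p = 0.00698). Rnase10 missed the threshold without dHet proB library 1 (adjusted p = 0.055). Trf did not pass without mouse 686 or dHet proB library 1 (adjusted p = 0.0508 to 0.0605). Rnase12, Rnase11, Crisp1, Cdh17 and Jchain kept their calls with each unit left out in turn.

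**Figure D3:**
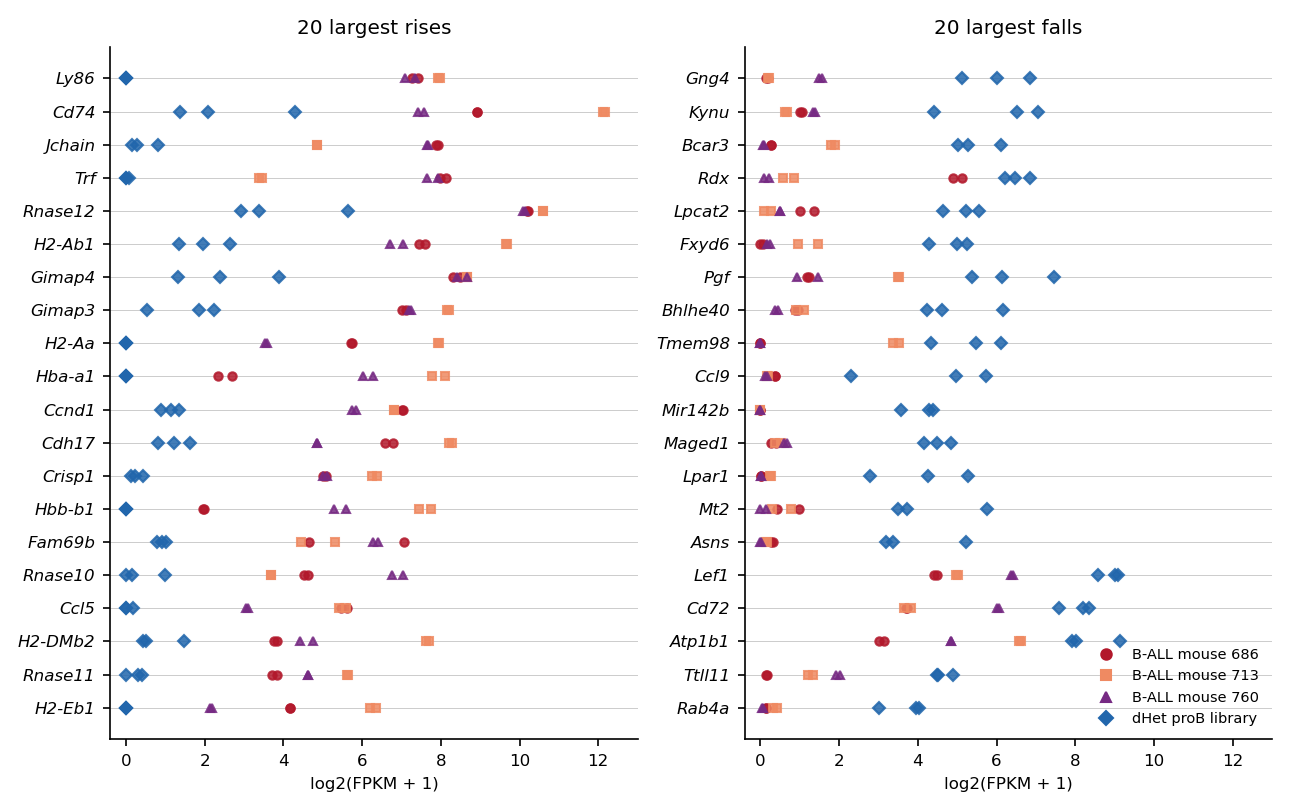
log2(FPKM + 1), on the x axis, of the 20 largest rises and the 20 largest falls chosen by rule (mean FPKM of at least 10 in the higher group), 1 symbol per library, with B-ALL libraries by mouse. The rule also required that the groups not overlap, so the gap between them is no finding. The mice are widely spread for the globins, Rdx, Cd74 and Trf.

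The largest falls were more varied in kind. Gng4, a G protein gamma subunit, was at 0.137 and 0.112 FPKM in mouse 686, 0.14 and 0.16 in mouse 713, 1.97 and 1.82 in mouse 760, and 63.6, 33.8 and 114 in dHet proB libraries 1, 2 and 3, a log2 difference of -5.36 ± 0.53 (limma adjusted p = 0.00337). Kynu, the kynureninase of tryptophan breakdown, was at 1.01 and 1.07 FPKM in mouse 686, 0.608 and 0.535 in mouse 713, 1.62 and 1.51 in mouse 760, and 90.6, 20.4 and 133 in dHet proB libraries 1, 2 and 3, a log2 difference of -4.99 ± 0.65 (limma adjusted p = 0.00695). Both are among the 20 largest falls, which were chosen to have every B-ALL library below every dHet proB library. Bhlhe40, a transcriptional repressor, was at 0.956 and 0.841 FPKM in mouse 686, 0.879 and 1.15 in mouse 713, 0.303 and 0.373 in mouse 760, and 17.9, 23.6 and 71 in dHet proB libraries 1, 2 and 3, a log2 difference of -4.23 ± 0.49 (limma adjusted p = 0.00524). Mt2, a metal-binding metallothionein, changed by -3.89 ± 0.59, Lpar1, a receptor for lysophosphatidic acid, by -4.01 ± 0.58, and Pgf, a placental growth factor, by -4.36 ± 0.76. Bcar3 (-4.74 ± 0.51), an adaptor in tyrosine kinase signalling, and Rdx (-4.55 ± 1.18), which ties membrane proteins to actin, also fell. Rdx was at 33.6 and 29 FPKM in mouse 686 and below 1 in the other mice. Mir142b, a short listed entry that is no measurement of a mature miRNA, was at 0 in all 6 B-ALL libraries. In the wt proB libraries, outside the test, mean FPKM was 0.19 for Gng4, 3.52 for Kynu, 0.045 for Mt2, 0.708 for Lpar1 and 0.562 for Pgf. Each of these means was nearer to B-ALL than to dHet proB. The wt means of Bhlhe40 (9.37) and Bcar3 (6.71) lay between the groups, and those of Rdx (67.5) and Mir142b (16.3) were nearer to dHet proB. Pgf lost the call without mouse 686 or dHet proB library 1 (adjusted p = 0.0518 to 0.0552). Rdx no longer passed without mouse 713 or 760 or dHet proB library 1, 2 or 3 (adjusted p = 0.08 to 0.121). Gng4, Kynu, Bhlhe40, Mt2, Lpar1 and Bcar3 kept their calls with each unit left out in turn.

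Several transcription factors of the B lineage fell in the leukemic cells. Of 15 tested B lineage transcription factors 7 fell (46.7%, against 8.31% of all tested genes) and none rose. Their median log2 difference was -0.95 against 0.03 over all tested genes. Ebf1 was at 169.9 and 151 FPKM in mouse 686, 212 and 185 in mouse 713, 189 and 155 in mouse 760, and 295, 369 and 282 in dHet proB libraries 1, 2 and 3, a log2 difference of -0.83 ± 0.17 (limma adjusted p = 0.0199). Pax5 was at 52.8 and 46.2 FPKM in mouse 686, 38.1 and 40.7 in mouse 713, 35.3 and 51.6 in mouse 760, and 99, 88.7 and 70.9 in dHet proB libraries 1, 2 and 3, a log2 difference of -0.95 ± 0.18 (limma adjusted p = 0.0164). The 6 leukemic values of both genes lay below the 3 others. The labels give both groups as Ebf1+/- Pax5+/-, and whether the remaining copies stayed intact in the leukemic cells was not tested. Foxo1, which drives Rag transcription, changed by -1.77 ± 0.30, with the 2 libraries far apart in mice 686 (4.51 and 12.9 FPKM) and 713 (12 and 28 FPKM). Bach2, a repressor that acts at the pre-B cell checkpoint, was at 4.02 and 4.25 FPKM in mouse 686, 6.84 and 9.57 in mouse 713, 7.52 and 9.43 in mouse 760, and 73.2, 56 and 86.3 in dHet proB libraries 1, 2 and 3, a log2 difference of -3.24 ± 0.29 (limma adjusted p = 0.00242). Lef1, a partner of beta-catenin found in pro-B and pre-B cells, was at 21.2 and 20.3 FPKM in mouse 686, 31.4 and 30.6 in mouse 713, 85.2 and 81.4 in mouse 760, and 546, 516 and 382 in dHet proB libraries 1, 2 and 3, a log2 difference of -3.62 ± 0.47 (limma adjusted p = 0.00698). The fall of both was seen in every mouse, which the choice of the largest falls required for Lef1, and Irf4 (-1.39 ± 0.39) fell by less. With all libraries, the count was 7, and it was 2 without dHet proB library 1, 5 without mouse 686, 5 without mouse 760, 11 without mouse 713 and 7 without dHet proB library 3. Ebf1 missed the threshold without mouse 686 or 760 or dHet proB library 1 (adjusted p = 0.0589 to 0.0846). Pax5 and Foxo1 did not pass without dHet proB library 1 (adjusted p = 0.0586 to 0.065). Irf4 lost the call without mouse 686 or 760 or dHet proB library 1 or 2 (adjusted p = 0.108 to 0.155). Bach2 and Lef1 kept their calls with each unit left out in turn.

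Genes known to be activated by PAX5 fell more often than they rose, and those it represses did not move as a block. Of 19 activated genes 8 fell and 1 rose (median -0.41), shares of 42.1% and 5.26%. Of 17 repressed genes 6 rose and 3 fell (median 1.08), shares of 35.3% and 17.6%. Cd72, a B cell co-receptor with inhibitory activity, was at 12.3 and 12 FPKM in mouse 686, 11.5 and 13.1 in mouse 713, 63.4 and 65.3 in mouse 760, and 323, 291 and 193 in dHet proB libraries 1, 2 and 3, a log2 difference of -3.55 ± 0.62 (limma adjusted p = 0.0143). Mouse 760 kept the highest value of Cd72 among the mice. The gene that rose was Blk, a Src family kinase of B cells, at 93.2 and 88.7 FPKM in mouse 686, 129 and 125 in mouse 713, 80.5 and 76.4 in mouse 760, and 22, 17.1 and 14.7 in dHet proB libraries 1, 2 and 3, a log2 difference of 2.39 ± 0.23 (limma adjusted p = 0.00323). Among repressed genes, Emb, which encodes the membrane glycoprotein embigin, was at 158 and 153 FPKM in mouse 686, 100.1 and 100.4 in mouse 713, 102 and 106 in mouse 760, and 8.78, 2.44 and 10.7 in dHet proB libraries 1, 2 and 3, a log2 difference of 4.01 ± 0.46 (limma adjusted p = 0.00515). Csf1r, the receptor of macrophage growth factor, was at 9.79 and 7.32 FPKM in mouse 686, 4.13 and 5.42 in mouse 713, 1.13 and 0.76 in mouse 760, and 0, 0 and 0.0108 in dHet proB libraries 1, 2 and 3, a log2 difference of 2.23 ± 0.54 (limma adjusted p = 0.0334), a low level, and it is also on the list of myeloid markers, whose sum was likewise highest in mouse 686 and lowest in mouse 760. Atp1b1, a subunit of the sodium pump, fell by 3.51, and Csf1, the growth factor itself, by 2.53 on the log2 scale. Without dHet proB library 1 the counts were 4 lower among activated and 1 higher among repressed genes, and without mouse 686 they were 5 and 1. Of 16 genes known to be activated by EBF1, 3 fell and 1 rose (median -0.38). These are shares of 18.8% and 6.25%, against 8.31% and 11.1% of all tested genes. Cd72 no longer passed without dHet proB library 1 (adjusted p = 0.0607). Csf1r missed the threshold without dHet proB library 1, 2 or 3 (adjusted p = 0.0724 to 0.109). Atp1b1 did not pass without mouse 686 or 760 or dHet proB library 1, 2 or 3 (adjusted p = 0.0603 to 0.0893). Csf1 lost the call without mouse 686 (adjusted p = 0.062). Blk and Emb kept their calls with each unit left out in turn.

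Most tested genes of the pre-B cell receptor and of the recombination machinery did not pass, as among all tested genes, of which 19.4% were called. Of 18 tested genes of the receptor and its proximal signalling 1 rose (Blk) and 3 fell (median -0.30). These are shares of 5.56% and 16.7%, against 11.1% and 8.31% of all tested genes. Blnk, the linker that couples the receptor to calcium signalling, was at 132 and 124 FPKM in mouse 686, 170.5 and 166 in mouse 713, 194 and 198 in mouse 760, and 670.3, 454 and 301 in dHet proB libraries 1, 2 and 3, a log2 difference of -1.47 ± 0.31 (limma adjusted p = 0.0229). Prkcb, a protein kinase C, changed by -1.99 ± 0.15, with 12.7 and 38.5 FPKM in the libraries of mouse 686 and 18.5 and 46.6 in those of mouse 713, and Pik3ap1, an adaptor for PI3 kinase, by -1.49 ± 0.41. Among the 14 genes of V(D)J recombination, 3 fell and 1 rose (median -0.26), shares of 21.4% and 7.14%. Rag1, the other recombinase subunit, was at 16.9 and 14.6 FPKM in mouse 686, 20.4 and 17.7 in mouse 713, 14.5 and 15.1 in mouse 760, and 46.5, 22.1 and 50.7 in dHet proB libraries 1, 2 and 3, a log2 difference of -1.14 ± 0.32 (limma adjusted p = 0.0475), and dHet proB library 2 came close to the leukemic values. Lig4, the ligase of end joining, was at 3.53 and 3.25 FPKM in mouse 686, 4.05 and 4.81 in mouse 713, 4.93 and 6.28 in mouse 760, and 22.5, 18.4 and 16.9 in dHet proB libraries 1, 2 and 3, a log2 difference of -1.9 ± 0.21 (limma adjusted p = 0.00464). Dclre1c, encoding the hairpin opener Artemis, changed by -1.18 ± 0.21, and Xrcc5, encoding Ku80, by 1.34 ± 0.37. Blnk no longer passed without mouse 686 or dHet proB library 1 or 2 (adjusted p = 0.0513 to 0.0834). Pik3ap1 and Xrcc5 missed the threshold without mouse 686 or 760 or dHet proB library 1, 2 or 3 (adjusted p = 0.0713 to 0.147). Rag1 did not pass without mouse 686, 713 or 760 or dHet proB library 1 or 3 (adjusted p = 0.0621 to 0.16). Dclre1c lost the call without mouse 686 or dHet proB library 1 (adjusted p = 0.062 to 0.0624). Prkcb and Lig4 kept their calls with each unit left out in turn.

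Receptors of the growth factors supplied in the culture moved in different directions. Il7r, the IL-7 receptor alpha chain, was at 71.2 and 65.5 FPKM in mouse 686, 95.5 and 97.5 in mouse 713, 88.3 and 102 in mouse 760, and 120.4, 71.5 and 119 in dHet proB libraries 1, 2 and 3, and did not pass (log2 -0.23 ± 0.25, limma adjusted p = 0.548). Kit, the receptor of SCF and the marker by which the fetal liver cells were chosen, was at 22.1 and 17.5 FPKM in mouse 686, 6.9 and 5.79 in mouse 713, 24 and 25.1 in mouse 760, and 108, 47.5 and 89.9 in dHet proB libraries 1, 2 and 3, a log2 difference of -2.32 ± 0.52 (limma adjusted p = 0.0263). Flt3, the receptor of Flt3 ligand, was at 58.9 and 52.9 FPKM in mouse 686, 69.6 and 67 in mouse 713, 9.53 and 10 in mouse 760, and 2.88, 0.205 and 2.33 in dHet proB libraries 1, 2 and 3, a log2 difference of 3.8 ± 0.77 (limma adjusted p = 0.0205). Kit was thus lower in all 3 mice and Flt3 higher, with mouse 760 at a lower level than the other mice for Flt3. Il2rg, the common gamma chain shared by the IL-7 receptor, rose by 0.97 ± 0.18, and Ptpn6, the phosphatase SHP-1 that dampens receptor signalling, rose by 1.6 ± 0.26. Jak2 (-1.0 ± 0.22) and Crlf2 (-0.96 ± 0.24), a kinase and the TSLP receptor chain, fell. Over the 17 tested genes of these pathways 3 rose and 3 fell (median -0.04), a share of 17.6% each. Over 13 cytokine-response genes 1 rose and 1 fell, a share of 7.69% each. Of all tested genes 11.1% rose and 8.31% fell. Without dHet proB library 3, in which the response genes Socs2, Pim1 and Myc were highest, 4 cytokine-response genes rose. Kit no longer passed without mouse 686 or dHet proB library 1 or 3 (adjusted p = 0.0649 to 0.101). Flt3 and Il2rg missed the threshold without mouse 686 or dHet proB library 1 (adjusted p = 0.0605 to 0.0737). Jak2 and Crlf2 did not pass without mouse 686 or 760 or dHet proB library 1 or 3 (adjusted p = 0.0582 to 0.128). Ptpn6 kept the call with each unit left out in turn.

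Within the RAS-MAPK pathway, 2 of 27 tested genes rose and 3 fell (median -0.07), shares of 7.41% and 11.1% that are near the 11.1% and 8.31% of all tested genes. Sos1, the exchange factor that loads RAS with GTP, was at 38.3 and 30.7 FPKM in mouse 686, 48.3 and 42.8 in mouse 713, 35.1 and 31.5 in mouse 760, and 0.905, 1.15 and 1.39 in dHet proB libraries 1, 2 and 3, a log2 difference of 4.16 ± 0.20 (limma adjusted p = 0.00076). Its level in the wt proB libraries averaged 1.12 FPKM, close to the dHet proB values. Dusp6, a phosphatase induced by ERK activity that acts on ERK itself, was at 56 and 49.2 FPKM in mouse 686, 132 and 132 in mouse 713, 49.8 and 53.7 in mouse 760, and 26.7, 13.4 and 6.99 in dHet proB libraries 1, 2 and 3, a log2 difference of 2.29 ± 0.53 (limma adjusted p = 0.0293). Rasa1 (-1.13 ± 0.18) and Mapk3 (-1.11 ± 0.18) were among those that fell, and both were lower in library 1 than in library 2 of each mouse, Rasa1 at least 2-fold so in mouse 713. Of 17 immediate early and AP-1 genes 1 rose (Dusp6) and 5 fell (median -0.97), shares of 5.88% and 29.4%. Jund, an AP-1 subunit, was at 4.51 and 38.1 FPKM in mouse 686, 9.59 and 61.4 in mouse 713, 9.29 and 16.4 in mouse 760, and 105, 135 and 193 in dHet proB libraries 1, 2 and 3, a log2 difference of -3.04 ± 0.32 (limma adjusted p = 0.00373), with the same gap between the libraries of mice 686 and 713. Btg2 (-1.68 ± 0.41), an antiproliferative gene, and Zfp36 (-1.2 ± 0.28), which speeds the decay of cytokine mRNA, fell with no such gap. Dusp6 lost the call without mouse 686 or dHet proB library 2 or 3 (adjusted p = 0.061 to 0.0678). Rasa1 and Mapk3 missed the threshold without mouse 686 (adjusted p = 0.0508 to 0.0532). Btg2 and Zfp36 did not pass without mouse 686 or 760 or dHet proB library 1 or 3 (adjusted p = 0.0677 to 0.121). Sos1 and Jund kept their calls with each unit left out in turn.

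Ccnd1 was the sole riser among 21 tested D-type cyclins, CDK4 and CDK6 genes and their inhibitors, of which 2 fell (median -0.43). These are shares of 4.76% and 9.52%, against 11.1% and 8.31% of all tested genes. Rb1, the retinoblastoma protein that these kinases act on, changed by -1.68 ± 0.29, and Cdkn1c, the inhibitor p57, by -1.58 ± 0.25. None of 38 DNA replication genes and none of 34 mitosis genes passed (median 0.23 and -0.07). Pcna, the replication clamp, was at 279 and 263 FPKM in mouse 686, 218 and 225 in mouse 713, 273 and 249 in mouse 760, and 311, 526 and 136 in dHet proB libraries 1, 2 and 3, so the 3 dHet proB libraries spanned more than the mice did. Mcm6, a helicase subunit, was at 376 and 338 FPKM in mouse 686, 238 and 229 in mouse 713, 367 and 361 in mouse 760, and 209, 356 and 130.0 in dHet proB libraries 1, 2 and 3, with the same wide span. An unadjusted limma p below 0.05 was reached by 3 of the replication and 1 of the mitosis genes. Without dHet proB library 2, which had the highest sums of these lists, 3 replication genes and 1 mitosis gene rose, and without library 3, 2 mitosis genes fell. In the BCL2 family 3 of 15 tested genes rose and 2 fell, shares of 20% and 13.3%. Bok, a pore-forming member, was at 111 and 110.0 FPKM in mouse 686, 75.1 and 70.7 in mouse 713, 47.1 and 39.1 in mouse 760, and 3.77, 10.9 and 2.89 in dHet proB libraries 1, 2 and 3, a log2 difference of 3.56 ± 0.50 (limma adjusted p = 0.0081). Bcl2l1, which encodes the survival protein BCL-XL, was at 47 and 45.5 FPKM in mouse 686, 111 and 99.1 in mouse 713, 62.8 and 41.2 in mouse 760, and 234, 243 and 229.7 in dHet proB libraries 1, 2 and 3, a log2 difference of -1.89 ± 0.30 (limma adjusted p = 0.0119). Bbc3, the p53 target PUMA, was at 1.84 and 16 FPKM in mouse 686, 3.04 and 5.33 in mouse 713, 1.73 and 1.96 in mouse 760, and 28, 87.2 and 28.4 in dHet proB libraries 1, 2 and 3, a log2 difference of -3.19 ± 0.51 (limma adjusted p = 0.0119). With Mdm2 (-0.64 ± 0.17) and Trp53inp1 (-1.32 ± 0.26) it made 3 falls (18.8%) among 16 tested genes of the p53 list, none of which rose. Cdkn1c lost the call without dHet proB library 1 (adjusted p = 0.0511). Mdm2 no longer passed without mouse 686 or 760 or dHet proB library 1, 2 or 3 (adjusted p = 0.0567 to 0.145). Trp53inp1 missed the threshold without mouse 686 or dHet proB library 1 (adjusted p = 0.0648 to 0.067). Rb1, Bok, Bcl2l1 and Bbc3 kept their calls with each unit left out in turn.

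Genes that build ribosomes rose as a group. Of 40 tested genes of ribosome biogenesis and the nucleolus 33 rose and none fell, all 40 had a log2 difference above 0, and the median was 1.34 against 0.03 over all tested genes, of which 11.1% rose. These genes make and process ribosomal RNA and are classic targets of MYC, which binds the sequence CACGTG. Mybbp1a, a nucleolar regulator of ribosomal RNA synthesis, was at 128 and 116 FPKM in mouse 686, 85.4 and 79.2 in mouse 713, 109.9 and 105 in mouse 760, and 12.1, 24.6 and 28.7 in dHet proB libraries 1, 2 and 3, a log2 difference of 2.27 ± 0.33 (limma adjusted p = 0.00879). Gnl3, encoding nucleostemin, was at 115 and 103 FPKM in mouse 686, 63.9 and 65.7 in mouse 713, 84.8 and 91.9 in mouse 760, and 6.56, 17.8 and 43.6 in dHet proB libraries 1, 2 and 3, a log2 difference of 2.22 ± 0.60 (limma adjusted p = 0.0434). Polr1b, the second largest subunit of RNA polymerase I, was at 28.9 and 28.1 FPKM in mouse 686, 17.4 and 15.8 in mouse 713, 21.6 and 23.5 in mouse 760, and 1.7, 4.04 and 10.8 in dHet proB libraries 1, 2 and 3, a log2 difference of 2.08 ± 0.52 (limma adjusted p = 0.0349). The mice lay within 2-fold of each other for all 3 genes, and dHet proB library 1 was the lowest and library 3 the highest of the pre-leukemic values. Rrp12 (2.01 ± 0.38), which acts in the export of ribosomal subunits, rose too. The count was 26 after quantile normalization, 20 with every library rescaled to the same sum, 36 without dHet proB library 3, 28 without mouse 713, 17 without library 2, 16 without mouse 760, 11 without library 1 and 2 without mouse 686. Gnl3 did not pass without mouse 686, 713 or 760 or dHet proB library 1 or 2 (adjusted p = 0.057 to 0.133). Polr1b lost the call without mouse 686 or 760 or dHet proB library 1 or 2 (adjusted p = 0.0806 to 0.116). Rrp12 no longer passed without mouse 686 (adjusted p = 0.0673). Mybbp1a kept the call with each unit left out in turn.

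Myc itself was at 445 and 417 FPKM in mouse 686, 209 and 203 in mouse 713, 367 and 409.8 in mouse 760, and 9.39, 42.3 and 290.1 in dHet proB libraries 1, 2 and 3. All 6 leukemic values of Myc were above those of dHet proB libraries 1 and 2, and mouse 713 was below library 3, and the difference did not pass (log2 2.69 ± 1.09, limma adjusted p = 0.124). Without library 3 its limma adjusted p was 0.0212. Of 11 tested members of the MYC network 2 fell (18.2%, against 8.31% of all tested genes) and none rose (median -0.15). Those that fell were Mxd1 (-1.38 ± 0.22) and Mxd4 (-1.43 ± 0.37), which compete with MYC for its partner MAX. Mxd1 missed the threshold without dHet proB library 1 (adjusted p = 0.0525). Mxd4 did not pass without mouse 686 or 760 or dHet proB library 1, 2 or 3 (adjusted p = 0.0509 to 0.124).

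The promoters of Mybbp1a and of 2 class II genes described further on are printed because both groups of genes moved together, from 250 bases before to 50 bases after the start of the gene, 5′ to 3′, RefSeq, GRCm38.p6. Capitals mark CACGTG in Mybbp1a (chr11:72441077-72441376, + strand, 40 bases after the gene start) and ATTGG, the reverse complement of CCAAT, in H2-Aa (chr17:34287774-34288073, - strand, at -48) and H2-DMb2 (chr17:34144999-34145298, + strand, at -90). CCAAT is bound by NF-Y, part of the protein complex that assembles on class II promoters.
Mybbp1a: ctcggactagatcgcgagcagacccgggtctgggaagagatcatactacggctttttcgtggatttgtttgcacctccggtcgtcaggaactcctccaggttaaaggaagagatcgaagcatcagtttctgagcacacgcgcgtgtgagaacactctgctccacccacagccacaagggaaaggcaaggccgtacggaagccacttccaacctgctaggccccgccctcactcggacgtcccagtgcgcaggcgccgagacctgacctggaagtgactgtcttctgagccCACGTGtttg
H2-Aa: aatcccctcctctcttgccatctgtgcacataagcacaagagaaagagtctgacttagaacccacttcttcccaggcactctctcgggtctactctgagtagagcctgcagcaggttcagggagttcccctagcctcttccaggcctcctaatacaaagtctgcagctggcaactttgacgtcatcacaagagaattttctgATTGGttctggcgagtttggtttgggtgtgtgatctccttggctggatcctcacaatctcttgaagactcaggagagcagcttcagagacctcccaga
H2-DMb2: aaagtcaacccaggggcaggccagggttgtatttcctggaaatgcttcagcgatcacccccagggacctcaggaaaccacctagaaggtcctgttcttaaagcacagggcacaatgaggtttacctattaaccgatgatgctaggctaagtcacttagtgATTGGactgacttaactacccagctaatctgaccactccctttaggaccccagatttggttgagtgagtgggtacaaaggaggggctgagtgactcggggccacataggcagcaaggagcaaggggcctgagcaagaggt
CACGTG reads the same on both strands, and CCAAT was searched on both. CACGTG was present in 8 of 36 ribosome biogenesis promoters (22.2%), in 13.9% of promoters of genes called higher, 12.3% of those called lower, 10.9% of those tested and 7.24% of all 27025 promoters in the table. It was absent from the windows of Gnl3 and Polr1b. CCAAT was present in 9 of 11 class II promoters (81.8%) and in 37.9% of all. A match describes the sequence and does not show that a factor binds there.

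Genes of protein synthesis outside the nucleolus rose in smaller shares. Of 20 aminoacyl-tRNA synthetases 10 rose (median 0.73), of 49 mitochondrial ribosomal proteins 16 rose (median 0.51), and of 28 translation initiation factors 9 rose and 1 fell (median 0.35). Eif5a, an elongation factor that carries hypusine, was at 4436 and 4523 FPKM in mouse 686, 3750 and 3589 in mouse 713, 4427 and 3298 in mouse 760, and 1138, 2162 and 1410 in dHet proB libraries 1, 2 and 3, a log2 difference of 1.39 ± 0.26 (limma adjusted p = 0.0174). Farsb, a subunit of the phenylalanine synthetase, changed by 1.4 ± 0.26, Mars, the methionine enzyme, by 1.25 ± 0.25, and Mrps6, a protein of the small mitochondrial subunit, by 1.39 ± 0.24. With every library rescaled to the same sum the counts higher were 6 synthetases, 8 mitochondrial ribosomal proteins and 3 initiation factors. Without mouse 686 they were 0, 1 and 0, and without dHet proB library 1 they were 0, 2 and 1. Eif5a, Farsb, Mars and Mrps6 lost the call without mouse 686 or dHet proB library 1 (adjusted p = 0.0576 to 0.0738).

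**Figure D4:**
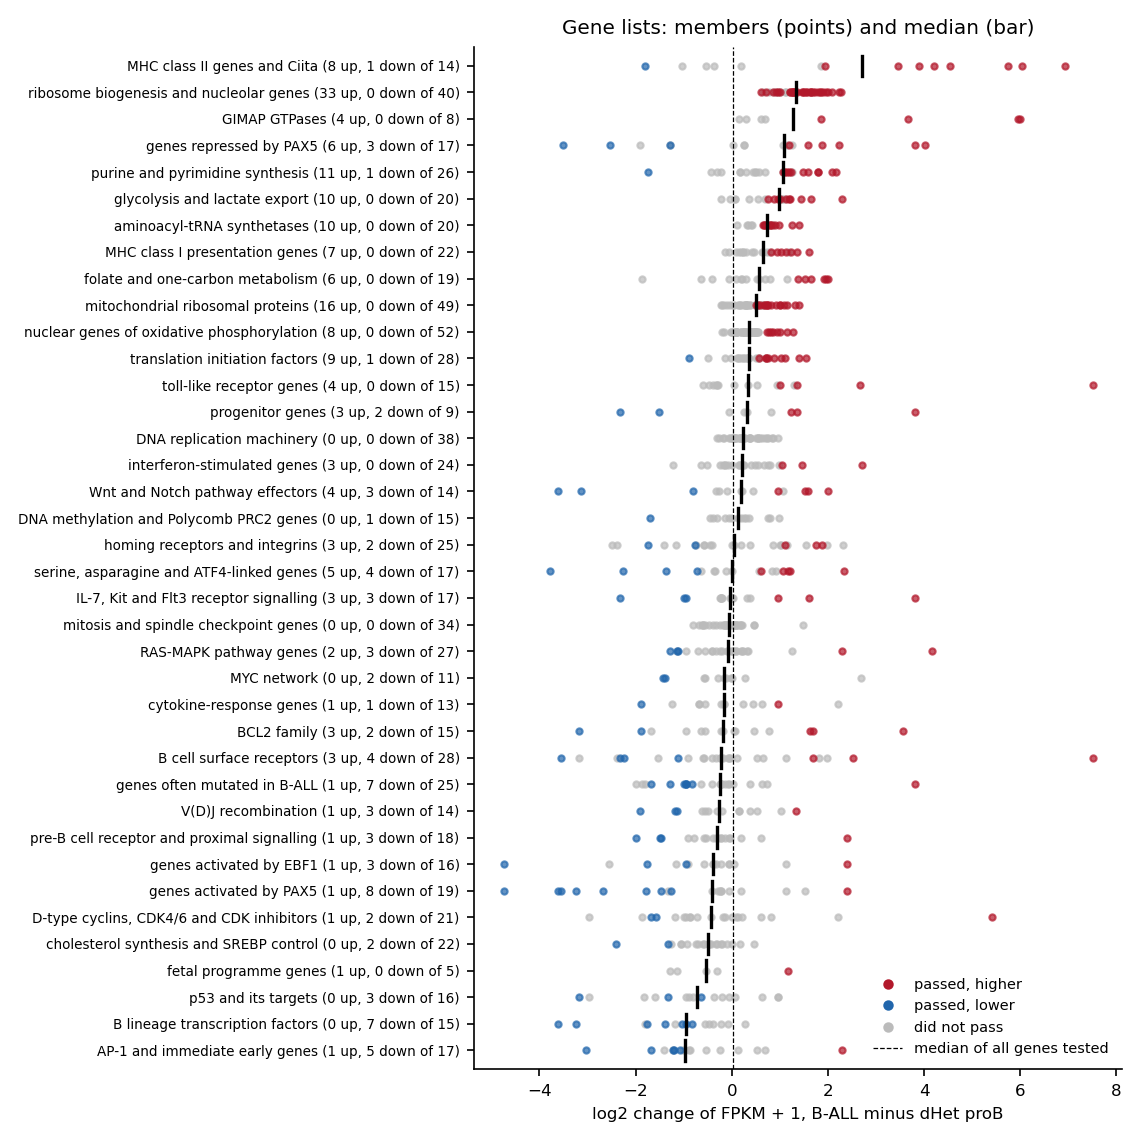
Log2 difference, B-ALL minus dHet proB, of every tested member of the pathway and family lists, 1 point per gene, with the list median as a bar, the median of all tested genes as a dashed line and called members coloured. The class II, ribosome biogenesis and GIMAP medians are the highest of these lists at 2.7, 1.34 and 1.28, and the immediate early and B lineage factor medians are among the lowest at -0.97 and -0.95.

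Part of the enzymes that make nucleotides, carry one-carbon units and break down glucose rose, and amino acid genes split. Of 26 purine and pyrimidine synthesis genes 11 rose and 1 fell (median 1.07). Cad, which carries out the first steps of pyrimidine synthesis, was at 27.1 and 21.8 FPKM in mouse 686, 15.1 and 12.3 in mouse 713, 18 and 20 in mouse 760, and 1.7, 4.93 and 4.12 in dHet proB libraries 1, 2 and 3, a log2 difference of 2.17 ± 0.35 (limma adjusted p = 0.0119). Gart (2.08 ± 0.36), of purine synthesis, and Aprt (1.8 ± 0.18), of adenine salvage, rose, and Adssl1 (-1.74 ± 0.37) was the 1 that fell. Of 19 folate and one-carbon genes 6 rose and none fell (median 0.56), led by Shmt2 (2.0 ± 0.32), Mthfd1 (1.96 ± 0.42) and the folate carrier Slc19a1 (1.93 ± 0.37). Of 20 genes of glycolysis and lactate export 10 rose and none fell (median 0.99). Slc2a3, a glucose transporter, was at 32 and 27.9 FPKM in mouse 686, 20.9 and 17.7 in mouse 713, 23.7 and 22 in mouse 760, and 4.04, 4.99 and 3.14 in dHet proB libraries 1, 2 and 3, a log2 difference of 2.3 ± 0.23 (limma adjusted p = 0.00341). Ldha, lactate dehydrogenase A, was at 798 and 793 FPKM in mouse 686, 538 and 564 in mouse 713, 565 and 579.9 in mouse 760, and 149, 302 and 181 in dHet proB libraries 1, 2 and 3, a log2 difference of 1.64 ± 0.29 (limma adjusted p = 0.0147), and the lowest leukemic value of Ldha was above the highest of dHet proB. Of 52 nuclear genes of oxidative phosphorylation 8 rose (median 0.36), a share of 15.4% that is near the 11.1% of all genes. Gart no longer passed without mouse 686 (adjusted p = 0.0532). Adssl1 missed the threshold without mouse 686 or dHet proB library 1 or 2 (adjusted p = 0.059 to 0.0932). Mthfd1 did not pass without mouse 686 or 760 or dHet proB library 1 (adjusted p = 0.0517 to 0.0823). Slc19a1 and Ldha lost the call without mouse 686 or dHet proB library 1 (adjusted p = 0.0556 to 0.0666). Cad, Aprt, Shmt2 and Slc2a3 kept their calls with each unit left out in turn. Higher counts for nucleotide, folate, glycolysis and oxidative phosphorylation genes were 3, 1, 2 and 0 without mouse 686, 6, 1, 3 and 0 without dHet proB library 1, and 13, 7, 13 and 12 without dHet proB library 2. Without library 3, 1 oxidative phosphorylation gene rose.

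Asns and Slc1a5, both tied to amino acid supply, went down while the serine enzyme Phgdh went up. Asns, asparagine synthetase, was at 0.257 and 0.197 FPKM in mouse 686, 0.134 and 0.108 in mouse 713, 0.0185 and 0 in mouse 760, and 9.41, 36.3 and 8.1 in dHet proB libraries 1, 2 and 3, a log2 difference of -3.77 ± 0.52 (limma adjusted p = 0.00799). Slc1a5, the glutamine transporter ASCT2, was at 259.7 and 250.5 FPKM in mouse 686, 295 and 273 in mouse 713, 215 and 229 in mouse 760, and 1199, 1030 and 1446 in dHet proB libraries 1, 2 and 3, a log2 difference of -2.26 ± 0.19 (limma adjusted p = 0.00217). Slc1a5 was lower in every leukemic library, and for Asns this was required by the choice of the largest falls. The highest Asns value was in dHet proB library 2. Phgdh, the first enzyme of serine synthesis, was at 464 and 464 FPKM in mouse 686, 333 and 342 in mouse 713, 464 and 396 in mouse 760, and 52, 168 and 58.3 in dHet proB libraries 1, 2 and 3, a log2 difference of 2.33 ± 0.43 (limma adjusted p = 0.0164). Of the 17 tested genes of serine, asparagine and ATF4-linked genes 5 rose and 4 fell, and the median of 0.02 turned to -0.16 with every library rescaled to the same sum and to -0.10 after quantile normalization. Of 22 cholesterol synthesis and SREBP genes none rose and 2 fell (median -0.49), Insig1 (-2.4 ± 0.47), which holds SREBP back when sterols are plentiful, and Msmo1 (-1.32 ± 0.35), a sterol oxidase. The 2 cholesterol genes that fell are a share of 9.09%, near the 8.31% of all tested genes. Phgdh and Insig1 no longer passed without mouse 686 or dHet proB library 1 (adjusted p = 0.062 to 0.0786). Msmo1 missed the threshold without mouse 686 or 713 or dHet proB library 1, 2 or 3 (adjusted p = 0.073 to 0.13). Asns and Slc1a5 kept their calls with each unit left out in turn.

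Most of the tested MHC class II genes rose in the leukemic cells. MHC class II molecules display peptides to helper T cells, and their genes are switched on by the co-activator CIITA as B cells mature. Of 14 tested class II genes and Ciita 8 rose and 1 fell, with a median of 2.7, or 1.91 without the 2 members listed at 0 in every dHet proB library. H2-Aa, a class II alpha chain, was at 52.8 and 51.7 FPKM in mouse 686, 248 and 242 in mouse 713, 10.6 and 10.9 in mouse 760, and 0 in all 3 dHet proB libraries (limma adjusted p = 0.0134). H2-Ab1, its beta chain, was at 174 and 194 FPKM in mouse 686, 814 and 804 in mouse 713, 130.0 and 104 in mouse 760, and 2.88, 5.29 and 1.54 in dHet proB libraries 1, 2 and 3, a log2 difference of 6.04 ± 0.71 (limma adjusted p = 0.00531). Cd74, the invariant chain, was at 484 and 481 FPKM in mouse 686, 4599 and 4482 in mouse 713, 191 and 171 in mouse 760, and 3.23, 1.58 and 18.7 in dHet proB libraries 1, 2 and 3, a log2 difference of 6.94 ± 1.24 (limma adjusted p = 0.015). Mouse 713 was the highest in each, and mouse 760 the lowest. That all mice lay above dHet proB was required by the choice of the largest rises, to which these genes belong. H2-DMb2, a chain of the peptide loading protein DM, rose by 4.54 ± 0.94. The other risers were H2-Eb1, H2-DMa (3.45 ± 0.76), H2-DMb1 (3.9 ± 0.33) and the protease gene Ctss (1.95 ± 0.36). Ciita was at 0.959 and 1.04 FPKM in mouse 686, 8.85 and 8.28 in mouse 713, 1.63 and 1.73 in mouse 760, and 0, 0.0317 and 0.0319 in dHet proB libraries 1, 2 and 3 and did not pass (limma adjusted p = 0.0579). Rfxap, a subunit of the promoter-binding RFX complex, was the 1 that fell (-1.8 ± 0.26), with library 1 lower than library 2 in each mouse. The count of risers was 8 without mouse 713, 6 without dHet proB library 3, 5 without library 2, 7 without mouse 760, 6 without mouse 686 and 2 without dHet proB library 1. H2-Aa and Cd74 did not pass without dHet proB library 1 (adjusted p = 0.0547 to 0.0628). H2-DMb2 lost the call without dHet proB library 1 or 2 (adjusted p = 0.0549 to 0.0838). H2-Eb1 missed the threshold without mouse 686 or dHet proB library 1, 2 or 3 (adjusted p = 0.0577 to 0.0891). H2-Ab1 and Rfxap kept their calls with each unit left out in turn. Of 11 tested mature B cell markers 4 rose (36.4%, against 11.1% of all tested genes) and none fell. The list of 13 summed to 977 and 991 in mouse 713, between 465 and 491 in the other mice and between 331 and 528 in dHet proB. Its part in the class II values was not tested. The wt proB libraries held still more class II RNA (H2-Ab1 at 1028 FPKM on average), together with genes of other cells such as Siglech at 105 FPKM.

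**Figure D5:**
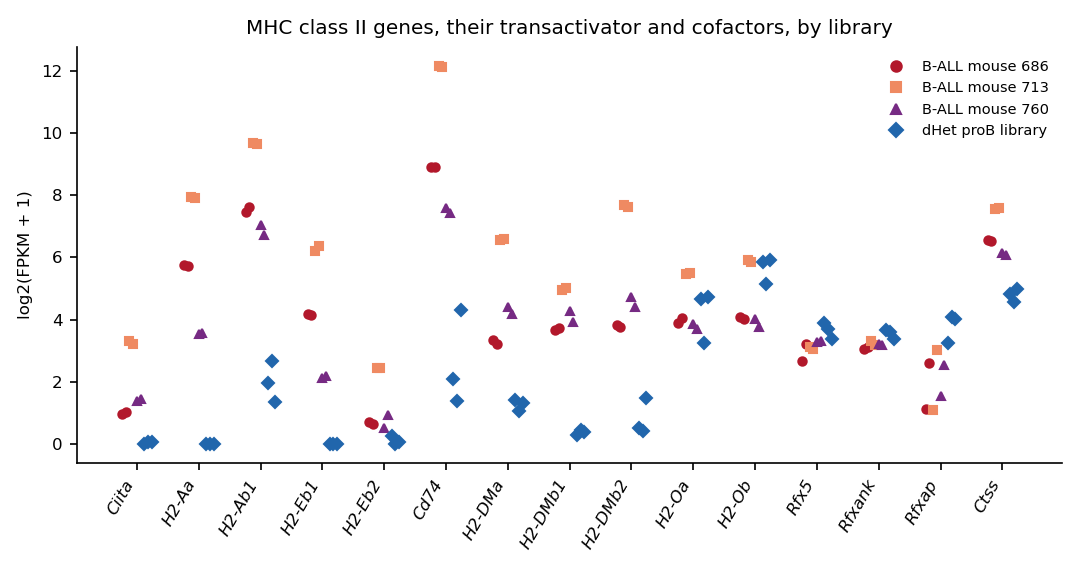
log2(FPKM + 1), on the y axis, of class II genes, Ciita and its cofactors, with 1 symbol per library and B-ALL libraries coloured by mouse. The FPKM of H2-Ab1 spans 104 to 814 in B-ALL and 1.54 to 5.29 in dHet proB, and mouse 713 is the highest throughout the called genes of the DM, A and E pairs and Cd74.

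Class I presentation moved less. Of 22 tested genes 7 rose and none fell (median 0.65). Calr, the chaperone calreticulin, was at 197 and 191 FPKM in mouse 686, 192 and 214 in mouse 713, 155 and 191 in mouse 760, and 45.6, 92.5 and 54 in dHet proB libraries 1, 2 and 3, a log2 difference of 1.61 ± 0.27 (limma adjusted p = 0.0125). Psme2, a proteasome activator subunit, changed by 1.36 ± 0.19, and Psmb8, an immunoproteasome subunit, by 1.24 ± 0.22. Of 24 interferon-stimulated genes 3 rose (median 0.22), a share of 12.5% near that of all genes, led by Oas1a (2.71 ± 0.34). Of 15 tested toll-like receptor genes 4 rose, a share of 26.7% against 11.1% of all tested genes. Tlr7, a sensor of single-stranded RNA, was at 12.6 and 10.3 FPKM in mouse 686, 12.8 and 12.1 in mouse 713, 5.55 and 6.32 in mouse 760, and 1.2, 0.121 and 0.855 in dHet proB libraries 1, 2 and 3, a log2 difference of 2.66 ± 0.36 (limma adjusted p = 0.0076). Psmb8 no longer passed without dHet proB library 1 (adjusted p = 0.0615). Calr, Psme2, Oas1a and Tlr7 kept their calls with each unit left out in turn.

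Of 28 tested B cell surface receptors 3 rose and 4 fell (median -0.23), shares of 10.7% and 14.3%, the first near the 11.1% of all tested genes. Cd24a, the heat-stable antigen used to stage early B cells, was at 106 and 102 FPKM in mouse 686, 142 and 148 in mouse 713, 129.7 and 142 in mouse 760, and 784, 556 and 499 in dHet proB libraries 1, 2 and 3, a log2 difference of -2.23 ± 0.22 (limma adjusted p = 0.00341). Tnfrsf13c, the BAFF receptor of maturing B cells, was at 79.8 and 81.2 FPKM in mouse 686, 195 and 210.2 in mouse 713, 52.5 and 58.3 in mouse 760, and 15.2, 16.2 and 16.6 in dHet proB libraries 1, 2 and 3, a log2 difference of 2.52 ± 0.44 (limma adjusted p = 0.014). Mouse 713 was again the highest for Tnfrsf13c. Ms4a1, encoding CD20, was low but present in all 6 leukemic libraries (1.08 to 5.47 FPKM) and at 0 in the dHet proB libraries (limma adjusted p = 0.0333). Of 25 homing receptors and integrins 3 rose and 2 fell, shares of 12% and 8% that are near those of all tested genes (11.1% and 8.31%), with a median of 0.04 that changes sign with the scaling. Itga6 (-1.75 ± 0.37), an integrin that binds laminin, and Icam2 (-0.77 ± 0.21), an adhesion ligand, fell, and the chemokine receptors Ccr2 (1.88 ± 0.36) and Cxcr3 (1.75 ± 0.38) rose at low levels. Tnfrsf13c missed the threshold without dHet proB library 1 (adjusted p = 0.0579). Ms4a1 and Cxcr3 did not pass without mouse 686 or dHet proB library 1, 2 or 3 (adjusted p = 0.0558 to 0.108). Itga6 lost the call without mouse 686 or 760 or dHet proB library 1 or 3 (adjusted p = 0.0567 to 0.0917). Icam2 no longer passed without mouse 686, 713 or 760 or dHet proB library 1 or 3 (adjusted p = 0.0633 to 0.159). Ccr2 missed the threshold without mouse 686 or dHet proB library 1 (adjusted p = 0.0646 to 0.0661). Cd24a kept the call with each unit left out in turn.

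The nuclear partners of Wnt and Notch signalling split, with 4 of 14 tested genes higher and 3 lower (median 0.20). These are shares of 28.6% and 21.4%, against 11.1% and 8.31% of all tested genes. The TCF and LEF factors moved in opposite directions. Tcf7l2 was at 4.83 and 4.62 FPKM in mouse 686, 4.86 and 4.32 in mouse 713, 10.2 and 9.83 in mouse 760, and 74.2, 80.1 and 38.2 in dHet proB libraries 1, 2 and 3, a log2 difference of -3.13 ± 0.38 (limma adjusted p = 0.00558), and Lef1 fell as well. Tcf7, best known from T cells, was at 4.01 and 6.31 FPKM in mouse 686, 4.83 and 10.3 in mouse 713, 14.3 and 20.5 in mouse 760, and 1.7, 0.546 and 2.24 in dHet proB libraries 1, 2 and 3, a log2 difference of 2.01 ± 0.46 (limma adjusted p = 0.0288). Notch1, the receptor that directs progenitors to the T lineage, was at 32.4 and 33 FPKM in mouse 686, 14.3 and 13.4 in mouse 713, 20.2 and 24.6 in mouse 760, and 7.41, 4.57 and 8.2 in dHet proB libraries 1, 2 and 3, a log2 difference of 1.58 ± 0.34 (limma adjusted p = 0.0236). T cell markers were higher in the same libraries: Cd3e was at 4.33 and 5.41 FPKM in mouse 686, 4.79 and 4.03 in mouse 713, 1.18 and 1.46 in mouse 760, and 0 in all 3 dHet proB libraries (limma adjusted p = 0.0154), and Lck, a kinase also used by early B cells, was at 83.5 and 83 FPKM in mouse 686, 208 and 196 in mouse 713, 325 and 270.3 in mouse 760, and 62.6, 45.9 and 50.8 in dHet proB libraries 1, 2 and 3, a log2 difference of 1.68 ± 0.44 (limma adjusted p = 0.0399). Among the mice, Tcf7 and Lck were highest in mouse 760, where Cd3e was lowest, and Notch1 was highest in mouse 686. Whether the values of Tcf7 and Notch1 come from T cells in the lymph node was not tested. Among 15 genes of DNA methylation and Polycomb, Ezh2, the histone methyltransferase of PRC2, was the 1 called, at 48.6 and 82.5 FPKM in mouse 686, 51.5 and 72.6 in mouse 713, 75 and 80.4 in mouse 760, and 178, 247 and 243 in dHet proB libraries 1, 2 and 3, a log2 difference of -1.7 ± 0.19 (limma adjusted p = 0.00443). That 1 call among the DNA methylation and Polycomb genes is a share of 6.67%, near the 8.31% of all tested genes that fell. Tcf7 did not pass without dHet proB library 1 or 2 (adjusted p = 0.0659 to 0.0888). Notch1 lost the call without mouse 686 or 760 or dHet proB library 1 or 2 (adjusted p = 0.0543 to 0.0752). Cd3e no longer passed without mouse 686 or dHet proB library 1 (adjusted p = 0.0541 to 0.0613). Lck missed the threshold without mouse 713 or 760 or dHet proB library 1, 2 or 3 (adjusted p = 0.0793 to 0.104). Tcf7l2 and Ezh2 kept their calls with each unit left out in turn.

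Of 25 tested genes that are often mutated in human B-ALL 7 fell and 1, Flt3, rose (median -0.23). These are shares of 28% and 4%, against 8.31% and 11.1% of all tested genes. Without dHet proB library 1 the count of falls was 1, and without mouse 686 it was 2. The falls included Ebf1, Pax5, Rb1, Jak2, Crlf2 and Kmt2a, all described above except the last. Kit and Myb, on the list of 9 tested progenitor genes, fell (22.2%) while Flt3, Cd7 and Tal1 rose (33.3%). Without mouse 686 or dHet proB library 1, 0 progenitor genes fell and 1 rose. Myb was at 31.6 and 96.2 FPKM in the libraries of mouse 686 and did not pass without mouse 686 or 713 or dHet proB library 1, 2 or 3 (limma adjusted p = 0.055 to 0.125). Tal1 lost the call without mouse 686 or 760 or dHet proB library 1 or 2 (limma adjusted p = 0.0615 to 0.0987). Of 5 tested fetal programme genes 1 (20%) rose, Igf2bp2 (1.17 ± 0.21), at a low mean of 1.46 FPKM in B-ALL. It was the only tested member with a log2 difference above 0, and the list median was -0.53. Most such genes were below the level needed for the test. Igf2bp2 did not pass without mouse 686 or dHet proB library 1 (adjusted p = 0.0516 to 0.063).

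Transcripts of red cells differed between the mice. Hba-a1, an alpha globin, was at 4.08 and 5.48 FPKM in mouse 686, 218 and 277 in mouse 713, 63.9 and 75.9 in mouse 760, and 0 in all 3 dHet proB libraries (limma adjusted p = 0.0254), and Hbb-b1 at 2.9 and 2.92 FPKM in mouse 686, 173 and 214 in mouse 713, 37.7 and 47.6 in mouse 760, and 0 in all 3 dHet proB libraries (limma adjusted p = 0.0357). Mouse 713 had the most and mouse 686 the least. Nkg7, a granule protein of cytotoxic cells, was at 38.5 and 37.1 FPKM in mouse 686, 21.1 and 22.7 in mouse 713, 328 and 265 in mouse 760, and 7.74, 2.72 and 6.49 in dHet proB libraries 1, 2 and 3, a log2 difference of 3.36 ± 0.91 (limma adjusted p = 0.0444), and was highest in mouse 760. Ccl5, a chemokine of cytotoxic and other lymphocytes, was at 48 and 43 FPKM in mouse 686, 41.5 and 47.3 in mouse 713, 7.3 and 7.57 in mouse 760, and 0, 0 and 0.125 in dHet proB libraries 1, 2 and 3, a log2 difference of 4.65 ± 0.64 (limma adjusted p = 0.00783). Hba-a1 and Hbb-b1 lost the call without mouse 760 or dHet proB library 1, 2 or 3 (adjusted p = 0.0592 to 0.114). Nkg7 no longer passed without mouse 686 or dHet proB library 1, 2 or 3 (adjusted p = 0.0869 to 0.111). Ccl5 kept the call with each unit left out in turn.

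Some of the genes that fell were at least 2-fold lower in library 1 than in library 2 of mouse 686 or 713, and the sizes of their falls depend on which library stands for a mouse. With only library 2 of each mouse the log2 difference was -2.01 for Jund (-4.06 with only library 1), -1.26 for Foxo1 (-2.29), -1.45 for Prkcb (-2.53) and -1.07 for Rfxap (-2.53). For the genes with such a gap in 1 of these mice it was -2.63 for Bbc3 (-3.74), -1.1 for Myb (-1.94), -0.99 for Mxd4 (-1.87) and -0.64 for Rasa1 (-1.62). Rasa1 alone among these 8 did not pass with library 2 (limma adjusted p = 0.0549), and Mxd4 alone did not with library 1 (limma adjusted p = 0.0519). With all 9 libraries and the mouse as a random effect none of the 8 passed (limma adjusted p = 0.103 to 0.35). What sets the libraries of a mouse apart was not tested.

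Among abundant transcripts, Crip1, a small LIM domain protein, was at 3914 and 4257 FPKM in mouse 686, 5233 and 5233 in mouse 713, 6665 and 5240 in mouse 760, and 1059, 1715 and 1008 in dHet proB libraries 1, 2 and 3, a log2 difference of 2.04 ± 0.27 (limma adjusted p = 0.00704). Tmsb4x, the actin-binding thymosin beta 4, changed by 1.31 ± 0.25, and Slc25a5, the ADP/ATP carrier of mitochondria, by 1.28 ± 0.22. Ftl1, the ferritin light chain, was at 2193 and 2154 FPKM in mouse 686, 2402 and 2388 in mouse 713, 2228 and 2031 in mouse 760, and 5056, 4125 and 4242 in dHet proB libraries 1, 2 and 3, a log2 difference of -1.0 ± 0.18 (limma adjusted p = 0.0146). Tspan13, a tetraspanin, changed by -1.57 ± 0.21. Tmsb4x and Slc25a5 missed the threshold without mouse 686 or dHet proB library 1 (adjusted p = 0.0579 to 0.0671). Ftl1 did not pass without mouse 686 or 760 or dHet proB library 1 (adjusted p = 0.0618 to 0.078). Crip1 and Tspan13 kept their calls with each unit left out in turn.

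The wt proB libraries, outside the test, give the levels in cells with both copies of Ebf1 and Pax5. Of the 813 genes that rose at least 2-fold the wt mean was nearer to dHet proB in 531 (65.3%), and of the 536 that fell at least 2-fold in 333 (62.1%). Among all 1878 tested genes at least 2-fold apart between the groups, called or not, it was nearer to dHet proB in 1186. Ly86 was in the wt cells at 96.9 FPKM, nearer to the leukemic level, and Sos1 at 1.12 FPKM, at the dHet proB level. Myeloid markers summed to 709 to 809 in the wt proB libraries, against 42 to 322 in B-ALL and 16.3 to 56.1 in dHet proB. The part of other cells in the wt values was not tested.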

How the data were processed

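RNA-seq libraries of mouse cells were prepared with a NEB E6420 kit from RNeasy-purified total RNA, per the labels' protocols. The submitters' processing notes name bcl2fastq 2.20.0.422 and 0.3.1, STAR 2.5.3a, Cufflinks 2.2.1, Cuffdiff, Cuffnorm 2.2.1 and genome build mm9. The authors deposited 1 FPKM value per gene symbol and library. Read counts were not used here, so absolute depth is unknown. From the steps between low FPKM values, relative depth ran from 0.64 to 1 of library 1 of mouse 686, with that library the deepest. Genes with overlapping, antisense or near-identical copies may share reads in these values, since the strand setting is not given in the sources used here.

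Values were tested as log2(FPKM + 1), with a pseudocount of 1, for genes with an FPKM of 1 or more in at least 2 of the 6 units. The 2 libraries of a mouse were averaged. limma 3.58.1 in R 4.3.3 was run on all tested genes with a mean-variance trend, two-sided tests and Benjamini-Hochberg adjustment at 0.05, and was tested on simulated data. No 2 libraries held identical values (0 pairs). The wt proB libraries stayed out of the reported test.

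Members, gene lists and tests were chosen with earlier results of these data known. Genes were named by rule: Ebf1, Pax5, Rag1, Rag2, Myc and Il7r, the 20 largest rises and 20 largest falls with no overlap between groups and a mean FPKM of at least 10 in the higher group (predicted gene models left out), up to 4 members per list and direction, and the 5 most abundant called genes per direction. Not every gene picked by this rule is described. Any other gene was named after its values were seen, among them Gm525, H2-DMa, H2-DMb1, Ctss, Ciita, Kmt2a, Siglech, Pnp2, Rnase9, Socs2 and Pim1. Promoters came from RefSeq (GRCm38.p6), where 8168 of the 10657 tested genes were matched by symbol.

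Alternatives were other pseudocounts, filters, scalings and variance models, wt proB in the test, other ways to use the libraries of a mouse, a replicate block, and leaving out each mouse or library.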

Additional observations from a re-analysis of the deposited data

How the results depend on the processing

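The reported 1181 higher and 886 lower genes became 720 and 583 with no filter on low values, where 16813 genes were tested. They ran from 321 to 1223 higher and from 216 to 935 lower when 1 mouse or library was left out, the fewest without dHet proB library 1, and were 323 and 236 without mouse 686 and 730 and 526 without mouse 760. The remaining settings gave 788 to 1619 higher and 692 to 1240 lower genes. Among the 179 called genes that the naming rule picked, 55 still had the call under each of the 25 other settings and 61 under the 12 that left out a mouse or library. Pcna, which did not pass (log2 -0.17), ran from -0.69 to 0.28 (-0.69 without dHet proB library 3, 0.28, the opposite direction, without library 2), and the cause was not tested. A replicate block, with the mouse as a random effect, gave 1269 and 729 against 1468 and 826 without it. The deviations of same-numbered libraries correlated at 0.095 for number 1 and -0.024 for number 2. The 2 libraries of a mouse deviate from their mean in opposite directions, so these values are not separate checks. Whether same-numbered libraries were handled together cannot be told from them. Since absolute depth is unknown, a value of 0 carries no detection limit here.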

Other observations

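Genes on chromosome 15 were higher in mouse 713 than in the other mice. Over its 309 genes with a mean FPKM of at least 5, the median log2 difference from the dHet proB mean was 0.553 in mouse 713, 0.068 in mouse 686 and 0.045 in mouse 760. Of these genes 262 (84.8%) were higher in mouse 713 than in the mean of the other mice. On the 19 other chromosomes the medians ran from -0.062 to 0.195 in mouse 713, from -0.003 to 0.166 in mouse 686 and from -0.031 to 0.166 in mouse 760, and 37.4% to 56.2% of genes were higher in mouse 713. Myc lies on chromosome 15 and was lowest in mouse 713 among the mice. This pattern was noticed in these data, and no DNA copy number was analysed here.

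Some of the called genes lay next to each other in the RefSeq gene order (GRCm38.p6), searched on all chromosomes but chromosome 18. There were 14 runs of at least 3 neighbouring tested genes that all rose at least 2-fold and 6 runs that all fell. Besides the ribonuclease genes and the class II genes, the runs that rose held Notch1, Egfl7, Agpat2 and Snhg7, the complement genes C1qb, C1qc and C1qa, and the T cell receptor partners Cd3g, Cd3d and Cd3e. The longest run that fell was Mapk1ip1, Ppp2r2d, Bnip3 and Lrrc27. The complement genes are known from macrophages. Myeloid markers summed to 42 to 322 in B-ALL and 16.3 to 56.1 in dHet proB, which overlap in mouse 760. T cell markers summed to 134 to 581 and 78.1 to 97.3, and Lck was most of these sums. Their part in these runs was not tested.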
